A study of Homo sapiens with 4 samples.

Results

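The genes described here encode HLA class I molecules and the machinery that loads them with peptide, and were measured in U251-MG, a long-established glioblastoma line of human origin. They are HLA-B, HLA-C, HLA-E, HLA-F, B2M, TAP1, TAP2, TAPBP and NLRC5, 9 of the 61806 genes in the count table, each found as the single line with its symbol. The genes were chosen by name from values of the contrast studied here, with the lower counts of HLA-B in COL8A1 cells already known. Their differences between the groups are therefore given as a description. How many of them the fits over all genes called is printed once, and nothing is read from it. Total RNA was sequenced from 2 libraries of U251-MG cells infected with a lentiviral vector that expresses COL8A1, a collagen VIII chain, and from 2 libraries of cells infected with the negative control vector (NC). The vector backbone was pCDH-CMV-MCS-EF1-puro, both groups were labelled wild type in genotype, and both were grown in DMEM with fetal bovine serum. Whether replicate libraries were made from separate cultures is not stated in the labels, so p-values measure only the spread between libraries, which may be technical. The comparison asks how the transcript levels of these genes differed between cells with more COL8A1 and control cells.

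Class I molecules present peptides from inside the cell to CD8 T cells. A heavy chain, encoded by an HLA gene, pairs with beta-2 microglobulin (B2M). Peptides cut by the proteasome enter the endoplasmic reticulum through the TAP1 and TAP2 transporter, and tapasin (TAPBP) holds the empty molecule at that transporter until a peptide is bound. HLA-B and HLA-C are classical, highly polymorphic heavy chains, while HLA-E and HLA-F are nonclassical, and HLA-E is read by receptors of natural killer cells. NLRC5 is a coactivator of class I genes and of B2M, TAP1 and the immunoproteasome, and acts through factors bound at a conserved promoter module. Low class I expression is a known route by which tumour cells, glioma cells included, avoid T cells.

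COL8A1, the check of the labels, had 4290 and 2259 counts in COL8A1 replicates 1 and 2, against 77 and 82 counts in NC replicates 1 and 2, a 43.8-fold higher mean CPM (read counts scaled to a common library size). The total count was 31605164 and 27923796 in the COL8A1 libraries and 30895414 and 33576228 in the NC libraries. The astroglial and glioma markers VIM, NES, CD44, SOX2 and SOX9 were present in each library, and GFAP was low, at 65 and 51 counts in COL8A1 and 21 and 19 counts in NC cells. All 7 astroglial markers, S100B included, had a higher mean in COL8A1 cells. Their summed level was 4965 and 4376 CPM in COL8A1 and 4098 and 4669 CPM in NC cells. At an adjusted p under 0.05, edgeR and DESeq2 called none of them, against 0.0117% and 1.06% of all genes tested. At an unadjusted edgeR p under 0.05 there were 2 of the 7, against 6.07% of all genes tested. Of 7 immune markers, AIF1, CD3E and MS4A1 had 0 counts in all libraries. The summed level of the 7 was 3.96 and 4.68 CPM in COL8A1 cells and 5.38 and 6.05 CPM in NC cells, nearly all of it CD68. Of 3 endothelial markers, PECAM1 had 5 to 16 counts and VWF 14 to 39 counts per library, while CDH5 averaged 69.2 CPM in COL8A1 and 62.7 CPM in NC cells. Of 3 epithelial markers, EPCAM had at most 4 counts and CDH1 at most 9 in any library, while KRT5 averaged 70.6 CPM in COL8A1 and 53.7 CPM in NC cells. The part of these markers in the results below was not tested.

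The promoters of HLA-B, HLA-C, HLA-F and B2M are shown because the first 3 heavy chain genes were lower in COL8A1 cells while their common partner B2M was not. Each window runs from 250 bases before the start site to 50 bases from it, 5′ to 3′ on the gene's strand (RefSeq, build GRCh38.p14). Capitals mark matches, on either strand, to 4 motifs: the interferon-stimulated response element (ISRE, GAAANNGAAA), a kappa B like motif (GGGNNNNNCC), the CCAAT box (CCAAT) and a core of the cAMP response element (CRE, TGACG). The windows lie at chr6:31357130-31357429 on the minus strand for HLA-B, chr6:31272043-31272342 on the minus strand for HLA-C, chr6:29723184-29723483 on the plus strand for HLA-F and chr15:44711267-44711566 on the plus strand for B2M.
HLA-B: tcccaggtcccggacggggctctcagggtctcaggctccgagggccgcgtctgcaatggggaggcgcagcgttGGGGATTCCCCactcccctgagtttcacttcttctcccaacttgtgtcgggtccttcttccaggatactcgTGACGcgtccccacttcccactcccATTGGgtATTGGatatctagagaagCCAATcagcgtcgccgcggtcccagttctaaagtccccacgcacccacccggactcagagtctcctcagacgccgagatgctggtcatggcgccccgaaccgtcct
HLA-C: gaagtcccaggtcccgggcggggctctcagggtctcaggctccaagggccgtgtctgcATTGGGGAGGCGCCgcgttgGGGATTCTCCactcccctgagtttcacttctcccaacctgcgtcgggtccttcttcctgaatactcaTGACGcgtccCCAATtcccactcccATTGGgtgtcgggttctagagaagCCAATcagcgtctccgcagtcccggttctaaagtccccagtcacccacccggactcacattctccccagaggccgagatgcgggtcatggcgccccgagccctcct
HLA-F: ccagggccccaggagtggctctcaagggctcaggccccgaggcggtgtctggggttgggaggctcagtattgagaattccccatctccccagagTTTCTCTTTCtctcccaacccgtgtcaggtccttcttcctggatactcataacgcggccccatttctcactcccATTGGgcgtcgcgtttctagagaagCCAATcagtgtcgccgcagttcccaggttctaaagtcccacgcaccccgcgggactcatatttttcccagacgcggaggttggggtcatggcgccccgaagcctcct
B2M: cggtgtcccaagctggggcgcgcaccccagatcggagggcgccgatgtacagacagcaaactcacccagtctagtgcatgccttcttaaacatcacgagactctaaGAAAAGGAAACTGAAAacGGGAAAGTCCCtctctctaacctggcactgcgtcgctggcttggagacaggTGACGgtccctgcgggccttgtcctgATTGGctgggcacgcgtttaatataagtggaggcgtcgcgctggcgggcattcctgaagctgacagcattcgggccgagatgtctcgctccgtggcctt

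HLA-B and HLA-C had similar windows, with 90.9% of 296 aligned bases the same, against 82.4% of 295 for HLA-B and HLA-F. Positions are counted from 1 at the first base printed. HLA-B, HLA-C and B2M each held a CRE core, at bases 145 to 149, 146 to 150 and 176 to 180. All 4 windows held a CCAAT box or its complement, in HLA-B and HLA-C both at bases 195 to 199, in HLA-F at 194 to 198, and in B2M at 202 to 206. The kappa B like matches in HLA-B ran from base 74 to 84, where 2 matches overlap and spell the run GGGGATTCCCC. That run, read from the HLA-B window itself, was present in 11 of the 35116 promoter windows in the RefSeq table (0.0313%). HLA-B is thus among them by construction, and the share does not show that its site is distinctive. HLA-C had the match GGGATTCTCC at bases 79 to 88 and a second at bases 63 to 72, which shares 1 base with a CCAAT box. The ISRE letters matched once in HLA-F, at bases 95 to 104, and in B2M as 2 overlapping matches from base 107 to 122. Among all 35116 windows, 58.7% held the kappa B like motif, 3.57% the ISRE, 34.6% the CCAAT box and 24.6% the CRE core. A match describes the letters of a window and does not show that a factor was bound there. Only these exact letters were searched, so a missing match does not show that a window lacks such a site.

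HLA-B (ENSG00000234745), a classical heavy chain, was lower in COL8A1 cells. It lies on the minus strand of chromosome 6, from 31269491 to 31357188 (GENCODE release 29), and had 5773 and 4627 counts in the COL8A1 libraries, against 8884 and 9359 counts in the NC libraries. These are 182 and 167 CPM in COL8A1 and 289.7 and 278 CPM in NC cells. Both COL8A1 libraries lay below both NC libraries, and the libraries of each group lay close together. The means were 174 ± 10.6 CPM in COL8A1 and 284 ± 8.51 CPM in NC cells (SD, n = 2 each), and the COL8A1 mean was 0.614 times that of NC. The log2 fold change was −0.70 (SE 0.0733) and ran from −0.77 to −0.65 when 1 library was left out. Of the 8012 genes with a mean of at least 20 CPM, 0.699% had a log2 fold change as low as that of HLA-B or lower, and of all 17030 genes tested 4.15% did. In bulk RNA, fewer cells that express a gene and less RNA per cell cannot be told apart.

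HLA-C (ENSG00000204525), the other classical heavy chain among the 9 genes, was lower by a larger ratio but varied more between libraries. It lies beside HLA-B on the minus strand, from 31268749 to 31272130. Its level was 39.9 and 60.3 CPM in COL8A1 replicates 1 and 2, against 90.6 and 139 CPM in NC replicates 1 and 2. Replicate 2 was the higher library in both groups, and the groups did not overlap. The means were 50.1 ± 14.4 CPM in COL8A1 and 115 ± 34.5 CPM in NC cells (SD, n = 2 each). The log2 fold change was −1.20 (SE 0.294), and between −1.53 and −0.86 with 1 library left out. Of the genes with a mean of at least 20 CPM, 0.137% had a log2 fold change as low or lower.

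The sum of HLA-B and HLA-C was 222 and 227 CPM in the COL8A1 libraries, against 380 and 417 CPM in the NC libraries. The spread of HLA-C between libraries was thus larger, relative to its level, than that of the sum. One annotated transcript of HLA-B ends in an exon of HLA-C, and the exons of the 2 genes share 35 bases. An unnamed pseudogene on the opposite strand (ENSG00000271581) shares 542 bases with the exons of HLA-B and had 13 and 21 counts in COL8A1 and 44 and 40 counts in NC cells. When HLA-B was counted together with these overlapping genes, HLA-C included, its log2 fold change was −0.83. The coding sequences of HLA-B and HLA-C are 92.9% identical over 1086 aligned bases of their main GENCODE transcripts. Of the stretches of 100 bases in the HLA-B transcript, 0% occurred in a transcript of another gene, and of those in HLA-C 0.278% did. At 50 bases these shares were 2.54% and 6.79%. No source used here gives the read length or the treatment of reads with several matches, and the cells' own HLA alleles may differ from the reference, so values of the HLA genes are uncertain where reads could be shared.

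HLA-E (ENSG00000204592; chromosome 6, 30489467 to 30494205, plus strand), the nonclassical ligand of natural killer receptors, was at about the same level in both groups. It had 171 and 163 CPM in the COL8A1 libraries, against 150.4 and 174 CPM in the NC libraries, and the COL8A1 values lay between those of NC. The log2 fold change was 0.04 (SE 0.0939), −0.06 without NC replicate 1 and 0.15 without NC replicate 2.

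HLA-F (ENSG00000204642; chromosome 6, 29722775 to 29738528, plus strand), the other nonclassical heavy chain, was the least abundant heavy chain of the 4. It had 502 and 340 counts in the COL8A1 libraries, against 653 and 612 counts in the NC libraries. This is 15.8 and 12.2 CPM in COL8A1 cells and 21.3 and 18.2 CPM in NC cells, with no overlap. The log2 fold change was −0.49 (SE 0.18), −0.32 without COL8A1 replicate 2 and −0.69 without COL8A1 replicate 1. Its exons overlap those of 3 counted genes on the opposite strand, the largest of them HLA-F-AS1 with 157 and 143 counts in COL8A1 and 134 and 179 counts in NC cells. With these counts added, HLA-F had a log2 fold change of −0.34.

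B2M (ENSG00000166710; chromosome 15, 44711487 to 44718877, plus strand), the light chain shared by all class I molecules, was not lower. It had 34051 and 28453 counts in the COL8A1 libraries, against 33619 and 24539 counts in the NC libraries. The levels were 1071 and 1025 CPM in COL8A1 and 1096 and 728 CPM in NC cells. Both COL8A1 libraries lay between the NC libraries, which lay far apart. The log2 fold change of 0.20 (SE 0.200) was 0.52 without NC replicate 1 and −0.07 without NC replicate 2.

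**Figure D1:**
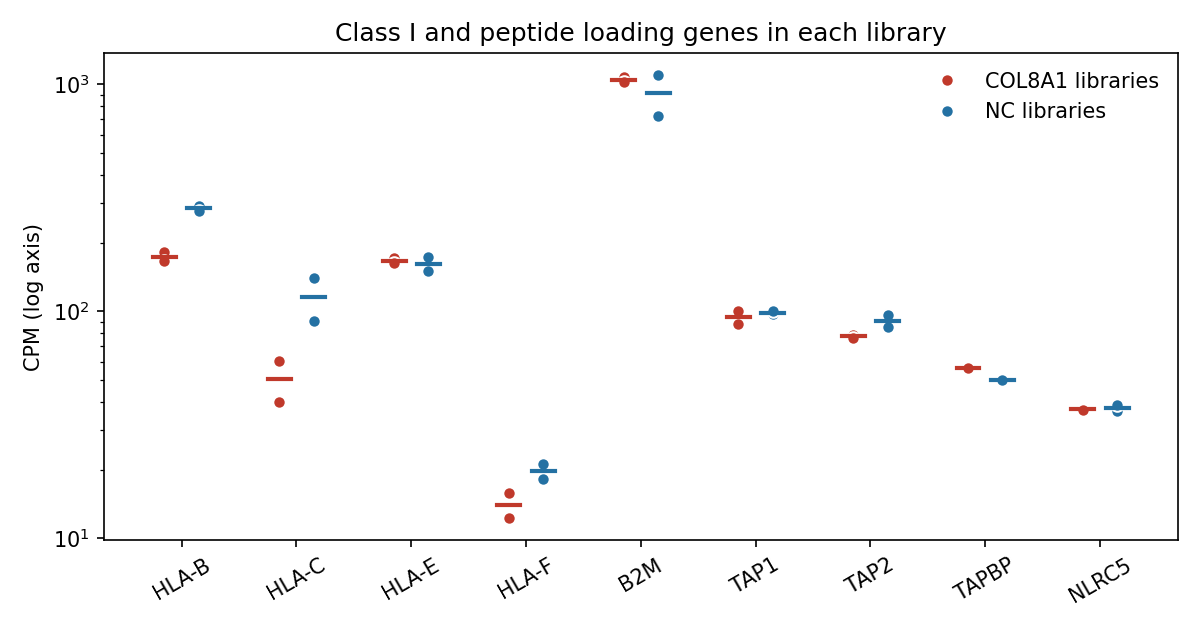
Level in CPM (log axis) of the 9 genes in each library; points are libraries, COL8A1 in red and NC in blue, and bars are group means. For HLA-B, HLA-C and HLA-F both COL8A1 points lie below both NC points, while the COL8A1 points of HLA-E and B2M lie between the NC points.

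The transporter genes and NLRC5 differed less between the groups than HLA-B did. TAP1 (ENSG00000168394; chromosome 6, 32845209 to 32853978, minus strand), one subunit of the peptide pump, had 100.2 and 88.3 CPM in the COL8A1 libraries, against 96.9 and 100.3 CPM in the NC libraries, and the groups overlapped. Its log2 fold change was −0.06 (SE 0.0926), −0.16 without COL8A1 replicate 1 and 0.02 without COL8A1 replicate 2. Its exons overlap those of PSMB8-AS1 on the opposite strand, which had 65 and 108 counts in COL8A1 and 103 and 32 counts in NC cells. TAP2 (ENSG00000204267; chromosome 6, 32821833 to 32838780, minus strand), the other subunit, had 78.8 and 76.6 CPM in the COL8A1 libraries, against 96.0 and 85.3 CPM in the NC libraries, with no overlap. Its log2 fold change was −0.22 (SE 0.0919), and −0.31 to −0.14 with 1 library left out. The log2 ratio of TAP1 to TAP2 counts was 0.35 and 0.21 in COL8A1 cells and 0.01 and 0.23 in NC cells, which overlap. The TAP2 value is uncertain, because 79.8% of its 100-base stretches also occur in a transcript of the overlapping gene ENSG00000250264, which lies on the same strand and shares 2064 exon bases with it. That gene had 113 and 65 counts in COL8A1 and 97 and 100 counts in NC cells.

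TAPBP (ENSG00000231925; chromosome 6, 33299694 to 33314387, minus strand), which encodes tapasin, was higher in both COL8A1 libraries than in either NC library. It had 1798 and 1561 counts in COL8A1 and 1526 and 1681 counts in NC cells, which is 56.6 and 56.2 CPM in COL8A1 and 49.8 and 49.9 CPM in NC cells. The means were 56.4 ± 0.259 CPM in COL8A1 and 49.8 ± 0.0778 CPM in NC cells (SD, n = 2 each), and the log2 fold change was 0.18 (SE 0.0831). NLRC5 (ENSG00000140853; chromosome 16, 56989485 to 57083531, plus strand), the transcriptional coactivator of the class I genes, had 37.2 and 36.7 CPM in the COL8A1 libraries, against 36.2 and 38.8 CPM in the NC libraries. The groups overlapped, and the log2 fold change was −0.02 (SE 0.0960), −0.07 without NC replicate 1 and 0.03 without NC replicate 2.

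**Figure D2:**
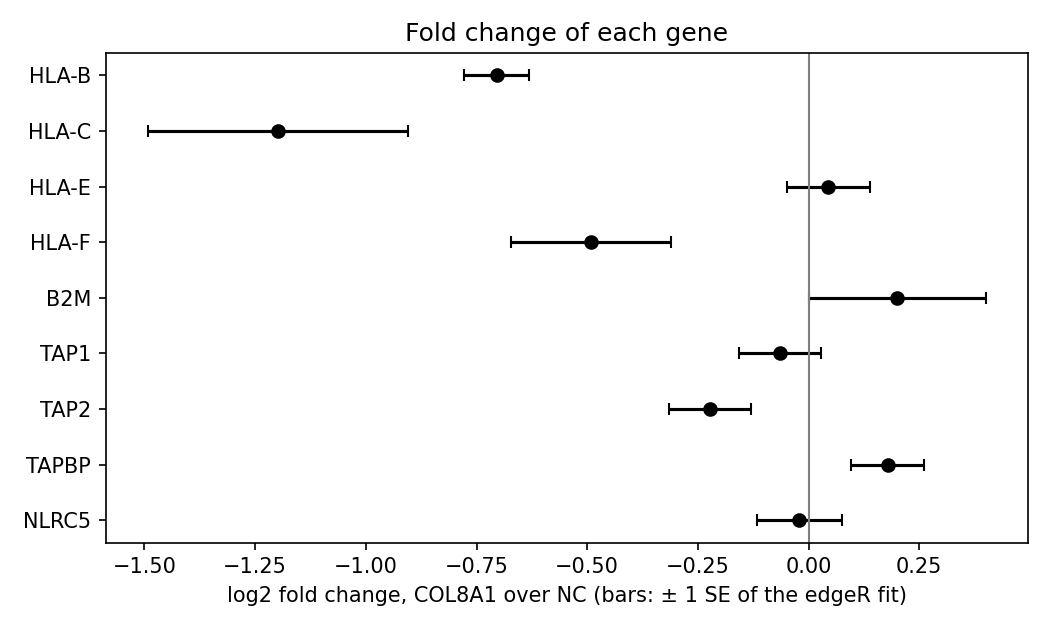
Log2 fold change of COL8A1 over NC for each of the 9 genes, with bars of 1 SE from the edgeR fit. HLA-C at −1.20 and HLA-B at −0.70 lie farthest from 0, and NLRC5 at −0.02 lies nearest.

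Of the 9 genes, all passed the low-count filter, 6 had a lower and 3 a higher mean CPM in COL8A1 cells, and the median log2 fold change was −0.06, against 0.0011 over all 17030 genes tested. Both COL8A1 libraries lay below both NC libraries for 4 of the 9 (HLA-B, HLA-C, HLA-F and TAP2) and for 18.6% of all genes tested. Without NC replicate 1 the count of such members was 7 of 9, but with a lone NC library 33.1% of all genes tested did the same. Both lay above for 1 (TAPBP) and for 18.9% of all genes tested. At an adjusted p under 0.05, edgeR called 0 of the 9 (3 at an unadjusted p under 0.05, against 6.07% of all genes tested) and 0.0117% of all genes tested, and DESeq2 called 2 of the 9 (HLA-B and HLA-C, both lower), against 1.06% of all genes in either direction and 0.452% lower. Since the members were picked from this contrast, nothing is read from these counts. The median gap between the libraries of a group was 0.07 on the log2 scale in COL8A1 and 0.17 in NC cells over the 9 genes, against 0.20 and 0.17 over all genes tested.

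Levels per length place the genes on 1 scale, which depends on the transcript chosen for each gene. Per kilobase of the main transcript, COL8A1 cells had B2M at 615 ± 19.5 CPM, HLA-B at 113 ± 6.88 CPM and HLA-E at 64.3 ± 2.09 CPM (SD, n = 2). Below them came HLA-C at 32.6 ± 9.40, TAP1 at 31.9 ± 2.87, TAP2 at 31.1 ± 0.633 and TAPBP at 29.9 ± 0.137 CPM per kilobase. The spreads of HLA-C and TAP1 overlap those of the others in this group. Both libraries of TAP2 lay above both of TAPBP, but the TAP2 count is uncertain, as described above. No order of TAP2 and TAPBP is therefore drawn. HLA-F followed at 8.57 ± 1.54 and NLRC5 at 5.41 ± 0.0486 CPM per kilobase. In NC cells B2M was again highest, at 535 ± 153, and HLA-B next, at 183 ± 5.50 CPM per kilobase. HLA-C at 74.9 ± 22.5 and HLA-E at 62.3 ± 6.36 CPM per kilobase overlapped there, while TAP2 at 36.3 ± 3.04 and TAP1 at 33.3 ± 0.833 CPM per kilobase came after them. TAPBP at 26.4 ± 0.0412, HLA-F at 12.1 ± 1.36 and NLRC5 at 5.49 ± 0.271 CPM per kilobase closed the order. Library by library, HLA-C had 26.0 and 39.3 CPM per kilobase in COL8A1 cells, below HLA-E at 65.8 and 62.8 CPM per kilobase. In NC cells HLA-C had 59.0 and 90.8 CPM per kilobase, above HLA-E at 57.8 and 66.8 CPM per kilobase in the same libraries. This order in NC cells depends on the transcript lengths used, 1536 bases for HLA-C and 2601 for HLA-E. In CPM not divided by length, HLA-E was above HLA-C in each library, in NC cells at 150.4 and 174 against 90.6 and 139 CPM.

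Ratios within a library do not depend on its depth. HLA-B had nearly as many counts as HLA-E in COL8A1 cells, with log2 ratios of 0.09 and 0.03, against 0.95 and 0.68 in NC cells. Against HLA-C the order was the other way, with log2 ratios of HLA-B to HLA-C of 2.19 and 1.47 in COL8A1 and 1.68 and 0.99 in NC cells, and these values overlap between the groups. Against HLA-F the ratios were 3.52 and 3.77 in COL8A1 and 3.77 and 3.93 in NC cells, and they overlap as well. HLA-B was therefore lower relative to HLA-E without overlap, and not relative to HLA-C. Against the geometric mean of HLA-C, HLA-E and HLA-F, the log2 ratio was 1.93 and 1.75 in COL8A1 and 2.13 and 1.87 in NC cells, and the groups overlapped. The log2 fold change of HLA-B less the median of these 3 genes was −0.21. It was −0.08 without COL8A1 replicate 1, −0.32 without COL8A1 replicate 2, −0.30 without NC replicate 1 and −0.13 without NC replicate 2. In each of these fits the median was the value of HLA-F, the least abundant of these heavy chains. The difference is therefore that between HLA-B and HLA-F alone. The difference was −0.49 with counts summed over overlapping genes, where HLA-B was at −0.83 and the median was again HLA-F, at −0.34. In that setting the sums of HLA-B and HLA-C each hold the counts of both genes. Against TAPBP the ratio was 1.68 and 1.57 in COL8A1 and 2.54 and 2.48 in NC cells, and against NLRC5 2.29 and 2.18 in COL8A1 and 3.002 and 2.84 in NC cells, without overlap in either case.

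**Figure D3:**
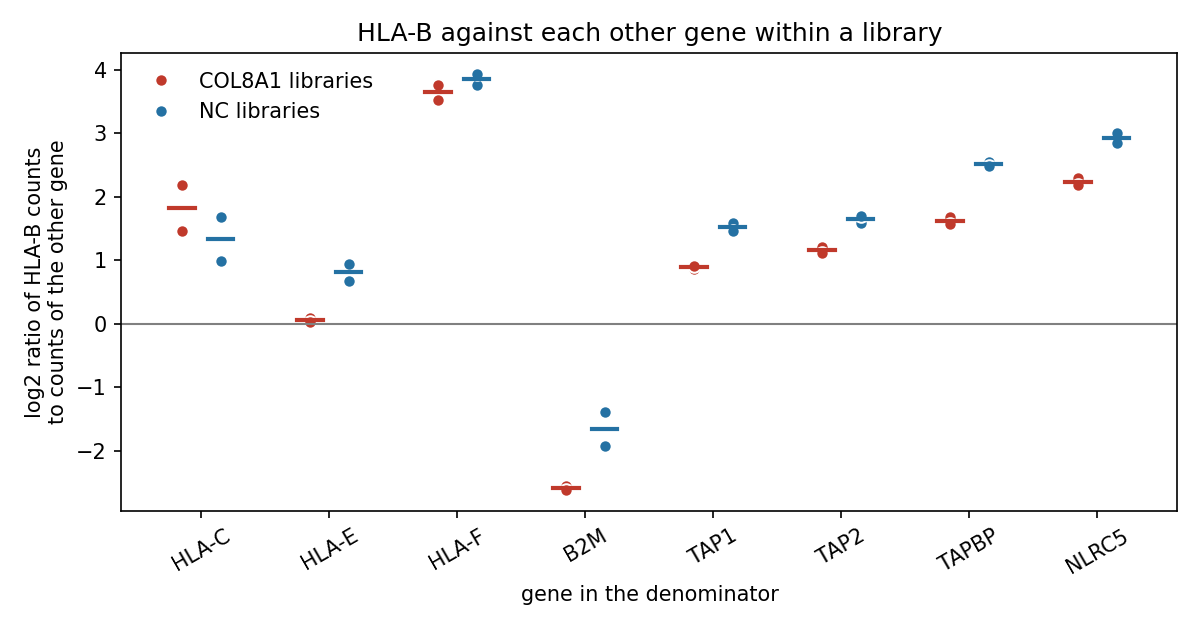
Log2 ratio of HLA-B counts to the counts of each other gene within a library; points are libraries, COL8A1 in red and NC in blue, and bars are group means. The ratio to HLA-E averaged 0.06 in COL8A1 and 0.81 in NC cells, whereas the ratio to HLA-C averaged 1.83 in COL8A1 and 1.34 in NC cells.

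The other steps of antigen presentation were followed in lists that hold none of the 9 genes. Of 67 tested genes in 6 lists, 33 were higher and 34 lower in COL8A1 cells. At an adjusted p under 0.05, edgeR and DESeq2 called 0 of them, against 0.0117% and 1.06% of all genes tested. At an unadjusted edgeR p under 0.05 there were 1 higher and 3 lower, against 3.44% higher and 2.63% lower among all genes tested. This count of 4 was 8 without COL8A1 replicate 1 and 1 without NC replicate 1, and 2 with DESeq2. The median log2 fold change over the 67 genes was −0.0033. The 2 genes that edgeR called among all genes tested were both lower in COL8A1 cells. COL8A1 itself, with a 43.8-fold higher mean, was thus not called by edgeR. A gene that missed this threshold is therefore not shown to be unchanged.

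Chaperones of peptide loading and folding had 6 of 8 genes higher and 2 lower, with a median of 0.06. Calreticulin (CALR), which holds the newly folded heavy chain, averaged 1632 ± 112 CPM in COL8A1 and 1506 ± 7.07 CPM in NC cells (n = 2 each; log2 fold change 0.12, SE 0.0627, edgeR adjusted p = 0.835). Calnexin (CANX), its membrane-bound relative, had a log2 fold change of −0.36 (SE 0.259), UGGT1, a folding sensor, −0.08 (SE 0.0616), and BCAP31, an export receptor, 0.29 (SE 0.220). None of these 3 passed the edgeR threshold (adjusted p 0.856, 0.864 and 0.861).

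Peptidases that trim peptides had 3 of 8 genes higher and 5 lower. ERAP1, which trims peptides in the endoplasmic reticulum to the length that class I binds, had 31.3 and 30.5 CPM in the COL8A1 libraries, against 38.02 and 38.01 CPM in the NC libraries. The groups did not overlap, but the log2 fold change of −0.30 (SE 0.0916) missed the edgeR threshold (adjusted p = 0.745). TPP2, a cytosolic peptidase, had 30.6 and 29.6 CPM in COL8A1 and 22.8 and 25.0 CPM in NC cells, and its log2 fold change of 0.33 (SE 0.104) also missed the threshold (edgeR adjusted p = 0.747). ERAP2, the relative of ERAP1, was at −0.14 (SE 0.131, edgeR adjusted p = 0.882), and BLMH, a cytosolic hydrolase, at 0.08 (SE 0.0886, adjusted p = 0.894).

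The immunoproteasome and its activator had 1 of 6 genes higher and 5 lower, with a median of −0.08. PSME2, an activator subunit, had a log2 fold change of −0.19 (SE 0.133, edgeR adjusted p = 0.852). The catalytic subunit PSMB9, whose gene stands head to head with TAP1, had 8.18 and 5.44 CPM in COL8A1 and 8.15 and 9.23 CPM in NC cells. Its log2 fold change was −0.35 (SE 0.254, edgeR adjusted p = 0.856). PSMB10, another catalytic subunit, was at −0.12 (SE 0.285) and the assembly factor POMP at −0.05 (SE 0.149), with edgeR adjusted p-values of 0.963 and 0.969.

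Regulators of class I transcription had 13 of 25 genes higher and 12 lower, with a median of 0.0055. IRF9, a subunit of the interferon-stimulated factor ISGF3, had a log2 fold change of 0.51 (SE 0.448, edgeR adjusted p = 0.874), on 60 to 136 counts per library. The interferon receptor chain IFNAR1 was at −0.33 (SE 0.257) and its kinase TYK2 at −0.14 (SE 0.0932), with edgeR adjusted p-values of 0.862 and 0.852.

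Other class I and class I-like genes had 7 of 15 tested genes higher and 8 lower, and the rest of the 28 counted were too low to be tested, among them HLA-G with 0 counts in all libraries. The list took every other HLA- symbol outside class II, whether or not the gene encodes a class I chain. It thus holds HLA-F-AS1, on the strand opposite HLA-F (log2 fold change 0.06), HLA-H (−0.16) and HLA-L (−0.61). They also count among the 67 genes above. Named by p-value are the endothelial protein C receptor gene PROCR (log2 fold change −0.39, SE 0.145, edgeR adjusted p = 0.816) and MR1, which presents vitamin metabolites to T cells (−0.76, SE 0.401, adjusted p = 0.835). MICB, a stress ligand of natural killer cells, was at 0.25 (SE 0.137, edgeR adjusted p = 0.835). Class II genes were near background, with a summed level of 3.52 and 3.24 CPM in COL8A1 and 2.84 and 2.85 CPM in NC cells over 12 genes. The largest single count among the named class II genes was 42, for the peptide exchanger HLA-DMA in COL8A1 replicate 1 (log2 fold change 0.88, SE 0.437, edgeR adjusted p = 0.835). HLA-DPA1 was at −0.77 (SE 0.612), HLA-DRA at 0.97 (SE 0.858) and the invariant chain CD74 at 0.53 (SE 0.534), with edgeR adjusted p-values of 0.864, 0.874 and 0.887.

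**Figure D4:**
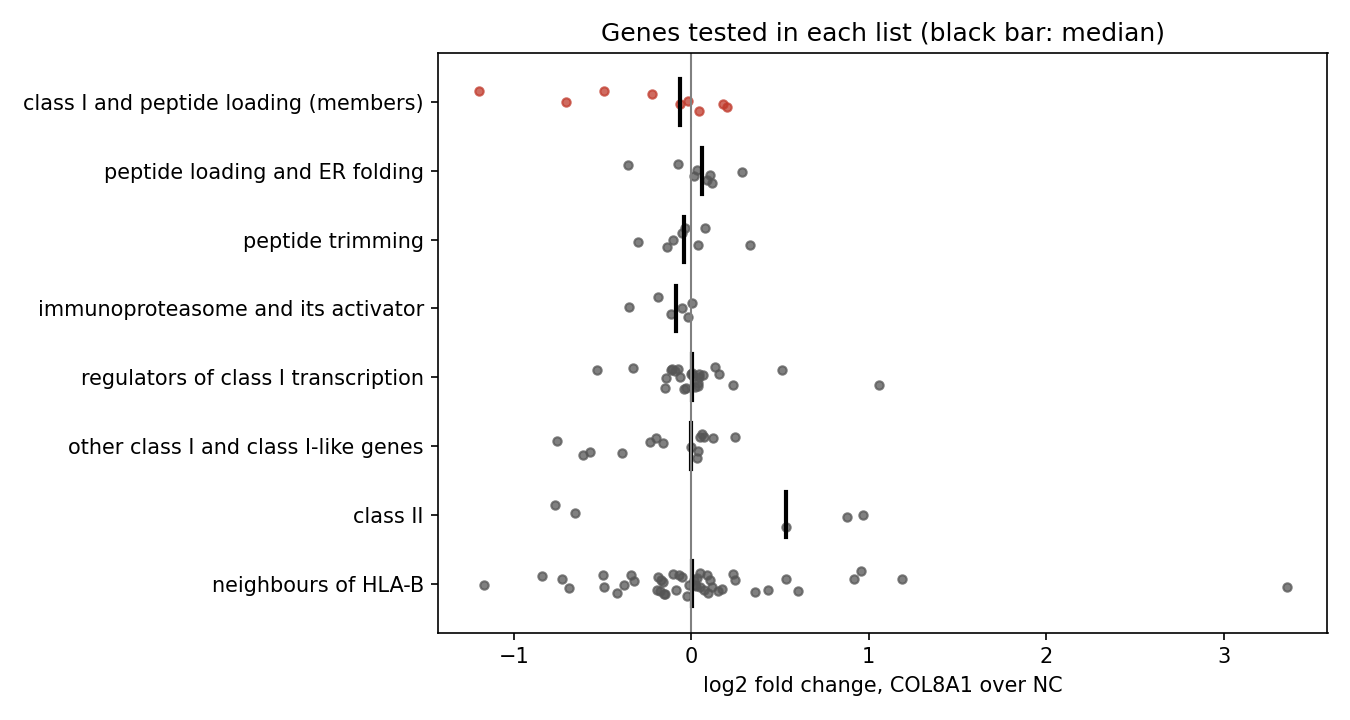
Log2 fold change of COL8A1 over NC for each tested gene of 7 lists, below the 9 class I and peptide loading genes in red; black bars are medians. The medians run from −0.08 to 0.06, apart from that of the 5 tested class II genes at 0.53.

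The genes around HLA-B on chromosome 6 were balanced in direction. Of 46 tested genes within 500 kb, HLA-B and HLA-C left out, 23 were lower and 23 higher, and the median was 0.00088 on the log2 scale. They include ENSG00000271581, the pseudogene whose exons overlap those of HLA-B (log2 fold change −1.17, SE 0.476). The joint entries ATP6V1G2-DDX39B and MSH5-SAPCD1 were counted beside the single genes they name. The 46 are thus not all separate from each other or from HLA-B. edgeR and DESeq2 called 0 of the 46, against 0.0117% and 1.06% of all genes tested. At an unadjusted edgeR p under 0.05 there were 0 higher and 3 lower, against 3.44% higher and 2.63% lower among all genes tested. Both COL8A1 libraries lay below both NC libraries for 12 of the 46 and above both for 11, against 18.6% below and 18.9% above among all genes tested. The smallest p-values were those of the Hsp70 genes HSPA1B (log2 fold change −0.20, SE 0.0587, edgeR adjusted p = 0.742) and HSPA1A (−0.19, SE 0.0675, adjusted p = 0.804), 2 near-identical genes whose reads may be shared. The chloride channel gene CLIC1 was at −0.16 (SE 0.0588, edgeR adjusted p = 0.813) and the casein kinase subunit CSNK2B at −0.73 (SE 0.291, adjusted p = 0.816).

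The genes with the pattern most like that of HLA-B over the 4 libraries were found by the distance between centred log2 CPM values, among 8011 other genes with a mean of at least 20 CPM. They were ANXA8, an annexin (distance 0.0868), IFI44, an interferon-induced gene (0.0875), ITGAE, the alpha chain of an integrin of T cells in epithelia (0.0941), HMGB2, a chromatin protein (0.106), and DPAGT1, an enzyme that starts N-glycosylation (0.110). IFI44 had 543 and 437 counts in COL8A1 and 808 and 821 counts in NC cells. Of the other members, HLA-F had the smallest distance from HLA-B, at 0.293, but its mean was too low for it to be ranked. TAP2 had a distance of 0.494 (rank 315 of 8011) and HLA-C one of 0.855 (rank 6307). With 4 libraries in 2 groups, any gene with close replicates and a similar fold change scores as alike.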

How the data were processed

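Total RNA of 2 COL8A1 and 2 NC libraries of U251-MG cells was sequenced, and samples were grouped by their titles. The authors deposited unnormalized read counts for each gene. The submitters' processing notes list hg38, featureCounts 0.3, HISAT2 2.2.1 and Trim Galore 0.6.9. Their parameters, the strand setting and the annotation release are not given in the sources used. Whether reads of genes that overlap on opposite strands were told apart is therefore unknown. The table held 61806 genes, and 1 line that was no gene, with 0 reads, was left out. Between 27923796 and 33576228 reads were counted per library, and PCR copies were counted as reads.

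Genes kept by filterByExpr (17030) were fitted in R 4.3.3 with edgeR 4.0.16 (TMM scaling, quasi-likelihood F-test, group as the only term, 2 residual degrees of freedom), with p-values adjusted after Benjamini and Hochberg over all genes tested and a threshold of 0.05. SE was derived from the fold change and F (log2 fold change, unsigned, over root F). CPM used TMM-scaled library sizes. The fit was tested on simulated counts, but the outcome is not given here and no error rate is drawn from it. Positions, exon overlaps and transcripts came from GENCODE release 29, and transcripts were aligned with Biopython 1.88. Lengths are those of the principal protein-coding transcript. Promoter windows came from the RefSeq table, which matched 7 of the 9 members.

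The members and gene lists were chosen with earlier results of these data known. Besides the members, the text names COL8A1, the overlapping genes, the 4 tested genes of each list with the smallest p, the 5 genes most like HLA-B, and markers. HLA-G was named after its values were seen. Some genes that this rule names are not reported here. Alternatives were other scaling, other filters, DESeq2 1.42.0, limma-voom (limma 3.58.1), a replicate block, counts summed over overlapping genes, and each library left out in turn. Libraries of a group differed beyond sampling noise and were counted separately.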

Additional observations from a re-analysis of the deposited data

How the results depend on the processing

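Precision was limited by the 2 libraries per group and, for the class II genes, by low counts. With 1 library left out, the lone library of its group was assumed to vary like those of the other group. HLA-B kept its direction under every alternative run, from −0.83 (summed over overlapping genes) to −0.65. Leaving out 1 library gave −0.77 to −0.65 for HLA-B, −0.32 to −0.08 for HLA-B less the median of HLA-C, HLA-E and HLA-F, 4 to 7 members lower without overlap, and 0 to 3 genes called by edgeR over all genes tested (0 without COL8A1 replicate 1, 1 without NC replicate 1). The count of members was 7 without NC replicate 1, and with 1 library left out 33.1% to 35.5% of all genes were lower without overlap. The calls over all genes, 2 in the edgeR fit, were 180 with DESeq2, 17 without a low-count filter and 1 with the replicate number as a block. HLA-B less the median of the 3 genes was −0.49 with counts summed over overlapping genes, and that median was HLA-F in every setting. The genes of the antigen presentation lists had 0 calls under each alternative, and at an unadjusted p under 0.05 there were 1 to 8 (2 with the replicate block). Across all genes, same-numbered libraries did not deviate together (Pearson r −0.04). For HLA-C alone the log2 gap of replicate 1 less replicate 2 was −0.60 in COL8A1 and −0.62 in NC cells. With 2 libraries per group, this r cannot show whether same-numbered libraries shared a culture or day. The labels do not say so either, and the main fit did not take the numbers as pairs. With the replicate block HLA-B was at −0.71 and no call among the lists changed. The median of all genes was 0.0011 with TMM, −0.00097 with RLE and 0.0036 with library size alone. The cause of the changes was not tested.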
